A study of Danio rerio with 2 samples.

Results

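The nuclear genes of oxidative phosphorylation were examined across the cell types of the adult zebrafish jaw joint. Members were taken by symbol, from names starting with nduf and then a, b, c, s or v (complex I, without the ndufaf assembly factors), uqcr (complex III), cox4 to cox8 (complex IV) and atp5 (complex V). The rule gave 86 of 36355 features, with 41 genes for complex I, 8 for complex III, 18 for complex IV and 19 for complex V. They were set beside the 12 mt- genes of the mitochondrial genome that the feature list holds. *mt-co3* of complex IV was not among these, so every mt- sum and nuclear to mt- ratio leaves it out.

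Single-cell RNA was counted in 2 libraries of live cells from 50 dissected and pooled jaw joints of zebrafish aged 3 months that carried the transgenes *sox10:DsRed* and *trps1:eGFP* together. The *sox10:DsRed*-enriched library (sox10 library) came from the sort on DsRed, with or without GFP, and the *trps1:eGFP*-enriched library (trps1 library) from the sort on GFP. All fish carried both transgenes and the labels name no treatment, and each sort gave 1 library from pooled fish, so no value has a replicate and no significance test was made. Levels are given as CPM, the unique molecular identifiers (UMIs, each marking 1 captured transcript) of a gene per 1000000 UMIs of a group of cells, with 95% intervals that cover counting error only.

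Oxidative phosphorylation passes electrons from NADH through complexes I, III and IV to oxygen, and complex V, the ATP synthase, uses the proton gradient so formed to make ATP. Complexes I, III, IV and V are built from subunits of both genomes, with the catalytic and proton-pumping core partly encoded in mitochondrial DNA and most subunits encoded in the nucleus. Cartilage is poor in blood vessels, and its cells are known to draw much of their ATP from glycolysis, while bone-forming cells and peripheral nerve are better supplied with oxygen.

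The sox10 library held 462 barcodes with a median of 1281.5 UMIs and the trps1 library 4876 with a median of 3054.5, of which 242 and 3919 passed the limits on genes and mitochondrial RNA. Only 2 kept barcodes were present in both libraries. Clusters were named "X-like" from markers, as chondrocyte, osteoblast, pre-osteoblast, glia, superficial chondrocyte (*prg4b*), ligamentocyte, dermal fibroblast, epithelial or endothelial. A further 8 clusters met no marker list and are called by a leading gene. The ligamentocyte-like, dermal fibroblast-like and unnamed cells of the trps1 library, 10 clusters and 3196 cells, are together called connective cells. Chondrocyte markers summed to 33320 CPM in the chondrocyte-like cells and 1670 CPM in connective cells, and all 13 had a UMI in both. The trps1 cluster highest for them was *pck1*, at 4335 CPM. Glial markers summed to 12837 CPM in the glia-like cells and 31.6 CPM in connective cells, with 9 of 10 having a UMI in both. *prg4a* had no UMI in the superficial chondrocyte-like cells. Skeletal muscle markers, from a tissue rich in these complexes, summed to 0 CPM in every sox10 cluster and to at most 49.9 CPM in the trps1 clusters, and no immune marker had a UMI in the chondrocyte-like or glia-like cells. Epithelial markers summed to between 546 and 4696 CPM in the other trps1 classes, against 40017 CPM in the epithelial-like cells, and their part in the results was not tested.

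Over all 4161 kept cells the members held 98353 UMIs, or 5819 CPM. A UMI was found for 85 of the 86 members and at least 100 UMIs for 75. Complex V contributed 2381 CPM, complex IV 1758 CPM, complex I 1230 CPM and complex III 449 CPM. The low end of the list was in complex I: *ndufa9b* had no UMI, *ndufs1*, *ndufa4* and *ndufa4l2a* had 1 UMI each, *ndufs8b* 2 and *ndufa4l2b* 3. *ndufs1* encodes the largest core subunit of the complex, while the core subunit genes *ndufs3*, *ndufs7*, *ndufv1* and *ndufv2* had between 165 and 360 UMIs. Counts come from tags at the 3′ end of transcripts and were not scaled by gene length.

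In each complex a few genes carried much of the total. *ndufa4l*, a relative of mammalian NDUFA4, a protein first assigned to complex I and later to complex IV, had 5398 UMIs and 26.0% of the complex I total. The next members of complex I by the symbol rule were *ndufb2*, *ndufa1*, *ndufb4* and *ndufb8*, all accessory subunits of the membrane arm, with between 845 and 1563 UMIs. In complex III the hinge protein gene *uqcrh* led with 1908 UMIs, followed by *uqcrb*, *uqcrq*, *uqcr10* and the Rieske iron-sulfur protein gene *uqcrfs1*, and these 5 genes held 84.0% of the complex. In complex IV, *cox6b2*, a subunit facing the intermembrane space whose mammalian counterpart is best known from testis, held 9225 UMIs and 31.0%, ahead of *cox4i1*, *cox7c*, *cox7b* and *cox6c*. In complex V the membrane rotor subunit c gene *atp5mc3b* (5767 UMIs) and the catalytic beta subunit gene *atp5f1b* (5182 UMIs) led, followed by *atp5l*, *atp5f1e* and *atp5meb*.

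The summed level of the members ranged 2.28-fold over 21 clusters of at least 10 cells. It was highest in the osteoblast-like (9902 CPM, interval 9412 to 10411, 15 cells) and pre-osteoblast-like cells (9441 CPM, 8917 to 9988, 30 cells) of the sox10 library, whose intervals overlap. Superficial chondrocyte-like (8558 CPM), glia-like (8397 CPM) and trps1 pre-osteoblast-like cells (8384 CPM) came next, and their intervals overlap too. Dermal fibroblast-like (6643 CPM) and epithelial-like cells (6556 CPM) followed. The remaining clusters lay between 4939 CPM in the *fgl1* cluster and 5917 CPM in the ligamentocyte-like cells, with endothelial-like cells lowest at 4334 CPM (3936 to 4761) from 25 cells. The 3 chondrocyte-like clusters, at 5839, 5385 and 5301 CPM, sat among the connective clusters. They came from the sox10 library, however, and the connective clusters from the trps1 library. The osteoblast lineage, found in both, was 1.53-fold higher in the sox10 library. Class and library therefore cannot be told apart where this order sets clusters of the 2 libraries side by side.

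**Figure D1:**
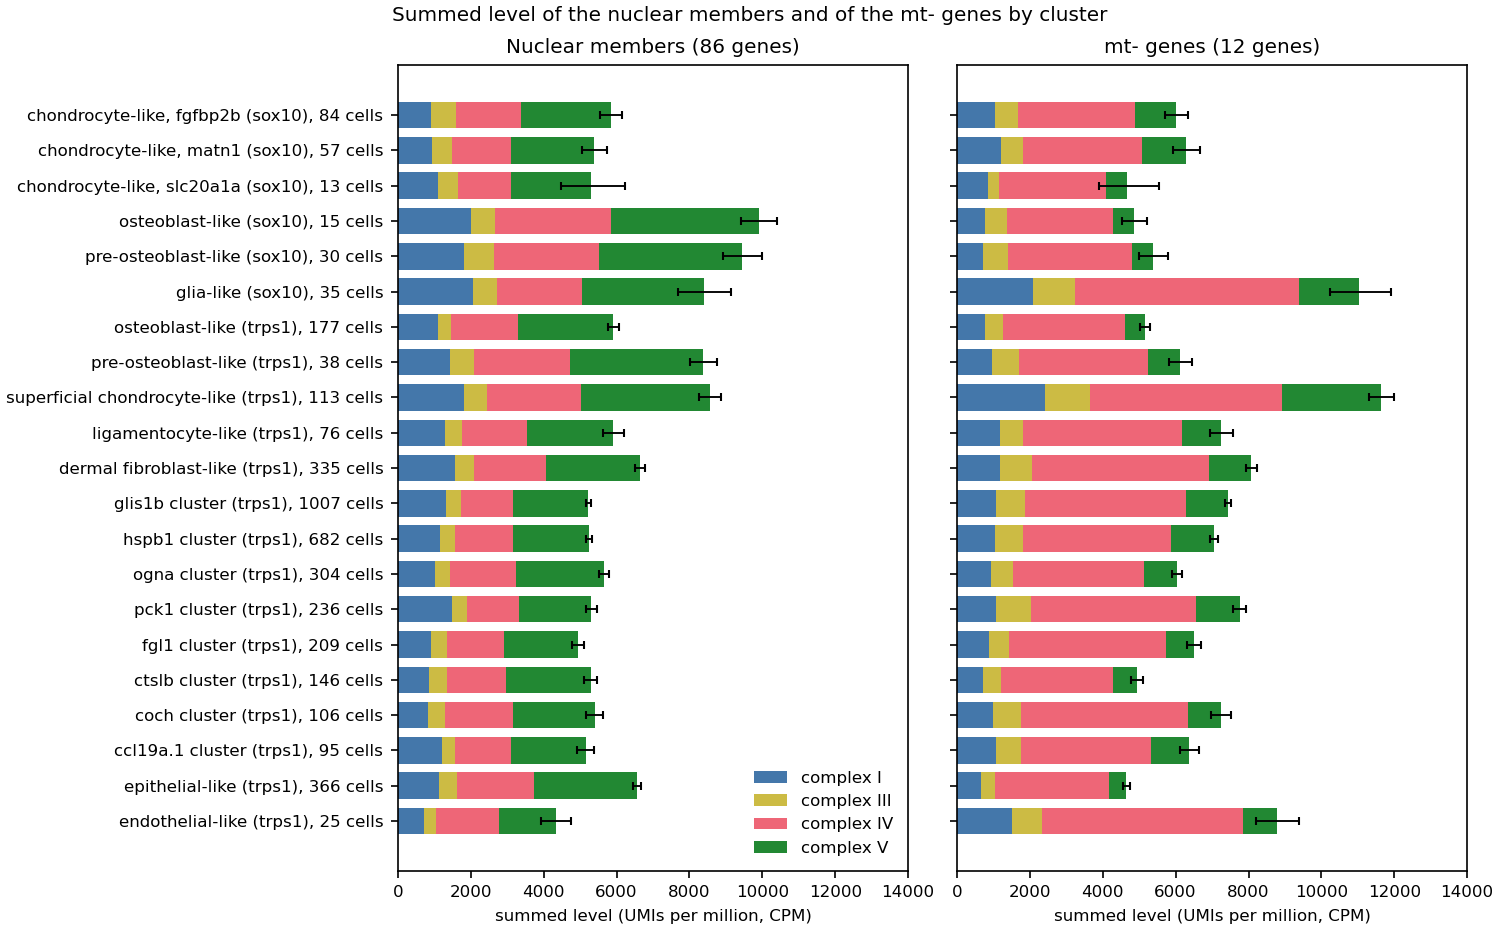
Summed level in CPM of the nuclear members (left) and of the mt- genes (right) in 21 clusters, stacked by complex, with 95% counting intervals of the total and the number of cells beside each name. The sox10 osteoblast-like, both pre-osteoblast-like, the glia-like and the superficial chondrocyte-like bars are longest on the left, and only the glia-like and superficial chondrocyte-like bars stand well beyond the others on the right.

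The mt- genes did not follow the same order. Their summed level was 11637 CPM in superficial chondrocyte-like cells and 11045 CPM in glia-like cells, but 4857 CPM in the sox10 osteoblast-like cells and 4651 CPM in epithelial-like cells, the lowest of the 21. The ratio of nuclear to mt- UMIs was 2.04 (1.87 to 2.23) in sox10 osteoblast-like, 1.76 in sox10 pre-osteoblast-like, 1.41 in epithelial-like and 1.37 in trps1 pre-osteoblast-like cells. It was lowest in endothelial-like cells at 0.494 (0.439 to 0.555), followed by the *pck1* (0.684) and *glis1b* (0.704) clusters, and stood at 0.735 (0.703 to 0.769) in superficial chondrocyte-like and 0.760 in glia-like cells. Over the 21 clusters the summed levels of both sets had a Pearson correlation of 0.12 and a Spearman correlation of -0.11, and over the 15 trps1 clusters of 0.28 and -0.04. Among the 10 connective clusters alone these were higher, at 0.44 and 0.38. This is a description of clusters that share libraries and a common total, and a limit of 5% on the mitochondrial share had been applied to every cell.

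**Figure D2:**
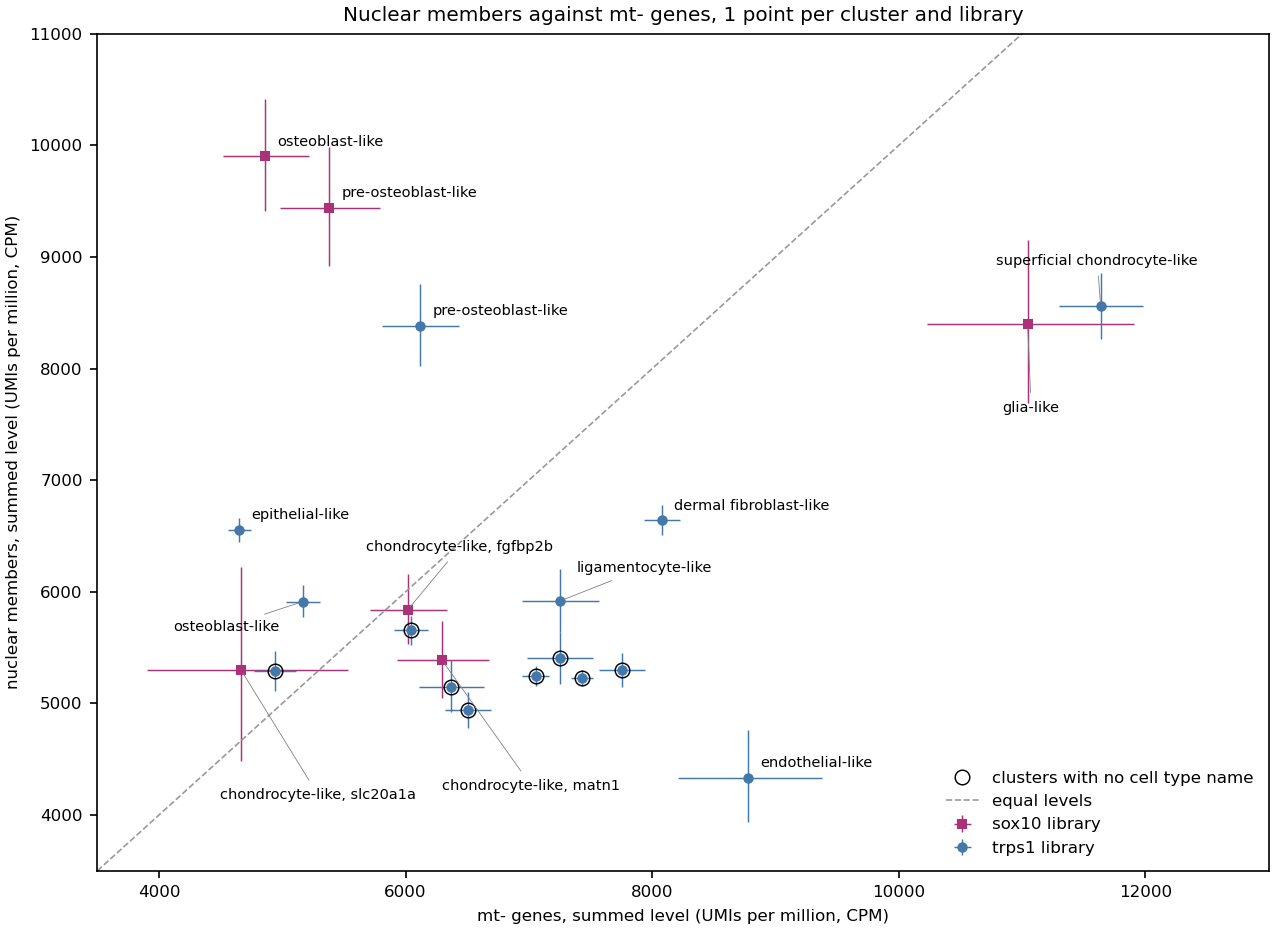
Summed CPM of the nuclear members against summed CPM of the mt- genes, 1 point per cluster and library with 95% counting intervals, and a dashed line of equal levels. Osteoblast-lineage and epithelial-like points lie above the line, at nuclear to mt- ratios between 1.14 and 2.04. Superficial chondrocyte-like (0.735), glia-like (0.760) and endothelial-like points (0.494) lie to the right of it. Most clusters with no cell type name do too, such as *pck1* (0.684) and *glis1b* (0.704).

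The share of the members was also taken within single cells. After each cell had been thinned to 1000 UMIs, the members made up a median of 0.5% of UMIs in chondrocyte-like cells (quartiles 0.4 and 0.7%), 0.9% in the sox10 osteoblast lineage (0.7 and 1.3%), 0.7% in glia-like cells (0.5 and 0.9%), 0.8% in superficial chondrocyte-like cells (0.6 and 1%) and 0.5% in connective cells (0.3 and 0.7%). Without thinning the medians were 0.548, 0.892, 0.784, 0.798 and 0.519%. Their quartiles were 0.409 and 0.682%, 0.761 and 1.07%, 0.492 and 1.04%, 0.563 and 1.05%, and 0.399 and 0.651% in the same order. These spreads include counting error, which was not separated from differences between cells. Of these cells, between 0 and 3 per class were too shallow to be thinned.

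The osteoblast lineage, which lays down bone matrix, was first compared with the chondrocyte-like cells of the same sox10 library. The members summed to 9693 CPM in 45 osteoblast-lineage cells and 5621 CPM in 154 chondrocyte-like cells, a ratio of 1.72 (1.63 to 1.82). Complex I (ratio 2.07, 1.81 to 2.35), complex IV (1.80, 1.63 to 1.99) and complex V (1.68, 1.55 to 1.83) were higher, and for complex III the interval included 1 (1.16, 0.962 to 1.39). Of 59 members with at least 5 UMIs expected in the smaller group, 21 were at least 2-fold higher after 10 CPM had been added to both levels, where 8.71% of 3469 features tested were, and none was at least 2-fold lower, where 35.2% were. The median log2 fold was 0.76 over these members and -0.56 over all features tested. Scaled to the median ratio of the features instead of the total, the ratio of the members was 2.66, 38 members passed, and the mt- ratio of 0.843 (0.790 to 0.899) turned to 1.30. This scaling moves all features by the same factor, and their share past 2-fold under it is not given here.

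The members with the highest folds in that comparison came from complexes I, IV and V. *ndufb3*, an accessory subunit of complex I, was at 77.8 CPM in the osteoblast lineage and 11.3 CPM in chondrocyte-like cells, a ratio of 6.89 (2.54 to 23.3). *atp5md*, a small membrane subunit of the ATP synthase, was at 156 against 40.7 CPM (ratio 3.83, 2.17 to 7.03), and *atp5f1c*, its rotating gamma subunit, at 166 against 47.5 CPM (3.50, 2.05 to 6.17). *cox6a1*, a small subunit of complex IV, was at 304 against 83.6 CPM (3.64, 2.45 to 5.50), so that none of these 4 intervals reached 1. *cox6b1* had 17 UMIs in the osteoblast lineage and none in chondrocyte-like cells. Against a floor of 3 UMIs in the latter it was 8.87-fold higher, a value that leaves out the counting error of the 17 UMIs. Those 17 UMIs came from 6 of 45 cells and all from osteoblast-like rather than pre-osteoblast-like cells. At the other end were *uqcrc1* and *uqcrc2b*, core subunits of complex III, with ratios of 0.417 and 0.470, and *atp5if1b*, an inhibitor of the ATP synthase, with 0.671, all with intervals that include 1.

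Other genes of energy metabolism are read against the 35.2% of all features that were at least 2-fold lower in this comparison. Succinate dehydrogenase, complex II, is encoded wholly in the nucleus, and 2 of its 4 tested genes, *sdha* (17.7 against 88.1 CPM) and *sdhdb* (3.54 against 31.6 CPM), were at least 2-fold lower in the osteoblast lineage. Of 14 tested glycolysis genes 5 were lower (*eno1a* and *ldha* among them), a share near that of all features, and 2 higher (*aldocb* and *ldhba*), and the list summed to 2062 CPM against 4466 CPM in chondrocyte-like cells. None of 5 tested genes of the citric acid cycle passed. Cytosolic ribosomal protein genes summed to 395749 CPM against 275753 CPM, and 7 of 10 dissociation stress genes such as *fosab* and *egr1* were lower (1447 against 6236 CPM summed). With mt-, ribosomal protein and the leading features taken out of the total, the ratio of the members was 2.50, and the part of the stress genes in it was not tested.

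Glia-like cells, which carry the myelin genes *mbpa* and *mpz*, differed from chondrocyte-like cells in both genomes. The members summed to 8397 CPM in 35 glia-like cells, a ratio of 1.49 (1.36 to 1.64), and the mt- genes to 11045 against 6044 CPM, a ratio of 1.83 (1.68 to 1.99). Complex I (2.22, 1.81 to 2.71) stood above complex IV (1.38, 1.14 to 1.65) and complex V (1.41, 1.21 to 1.64), and complex III was at 1.05 (0.735 to 1.46). At this depth 27 members could be tested. Of these 3 (11.1%) were at least 2-fold higher, near the 12.4% of 1247 features tested, and 2 were lower, against 35% of features. Only 2 of the 41 complex I members were tested, so the complex I ratio rests mostly on members too shallow to be tested singly. *cox6a1* (275 against 83.6 CPM), the ATP synthase stalk subunit *atp5pf* (210 against 63.3 CPM) and the membrane subunit *atp5meb* (226 against 97.2 CPM) were higher. *atp5mc3a*, a copy of the subunit c gene, had 1 UMI in glia-like cells (16.1 CPM) against 68 in chondrocyte-like cells (154 CPM), a ratio of 0.105 (0.00262 to 0.605), and *ndufb2* rested on 2 UMIs. All 8 tested mt- genes had a fold above 0, and *mt-co1*, a catalytic subunit of complex IV, passed 2-fold. Dissociation stress genes summed to 12789 CPM in glia-like and 6236 CPM in chondrocyte-like cells, with 5 of 9 tested higher and 1 lower, and their part in these ratios was not tested. The glia-like cells were shallow, with a median of 1306 UMIs, and with cells of at least 300 genes kept the members' ratio was 1.14, the mt- ratio 2.51 and *ndufb2* no longer lower.

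The chondrocyte-like cells fell into 3 subclusters, of which the 2 largest were compared. The subcluster led by *matn1* held 57 cells, and the one led by *fgfbp2b* held 84. Of these 2 the former was the higher in *ihha*, a signal of maturing chondrocytes, although *ihha* was not among its leading genes. The members summed to 5385 and 5839 CPM, a ratio of 0.922 (0.848 to 1.002), and the mt- genes to 6297 and 6017 CPM, a ratio of 1.05 (0.967 to 1.13), so both intervals include 1. Of 45 tested members 1 was at least 2-fold higher, *atp5pd* of the ATP synthase stalk, against 8.62% of 2679 features, and 3 lower, *atp5f1d*, *atp5f1c* and *uqcrc2b*, against 7.09%. Of these 4, only the interval of *atp5f1d* (22.4 against 76.4 CPM, ratio 0.293, 0.0721 to 0.889) left out 1, and no member passed when at least 20 UMIs were expected in place of 5. The third subcluster, of 13 sox10 cells, did have *ihha* among its leading genes but was not compared. Its members were at 5301 CPM (4487 to 6220).

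In the trps1 library the osteoblast lineage was compared with connective cells. The members summed to 6354 CPM in 215 cells and 5457 CPM in 3196, a ratio of 1.16 (1.14 to 1.19), while the mt- genes were lower at 5336 against 7084 CPM, a ratio of 0.753 (0.735 to 0.772). Complexes IV (1.23, 1.18 to 1.28) and V (1.28, 1.24 to 1.33) were higher, complex III was at 0.952 (0.870 to 1.04) and complex I slightly lower at 0.938 (0.889 to 0.988). The pooled osteoblast lineage joined unlike clusters: the members were 1.42-fold (1.35 to 1.49) higher in pre-osteoblast-like than in osteoblast-like cells, and complex III 1.79-fold (1.47 to 2.16). In the sox10 library the same ratio over all members was 0.953 (0.883 to 1.03).

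Of 76 tested members 3 were at least 2-fold higher in the trps1 osteoblast lineage, against 2.75% of 8538 features, and none lower, against 11.7%. These were *cox5ab*, a copy of the complex IV subunit 5A gene (63.3 against 22.3 CPM, ratio 2.84, 2.2 to 3.64), *atp5pd* (136 against 53.6 CPM, 2.54, 2.14 to 3.00) and *cox6b1* (38.7 against 10.5 CPM, 3.68, 2.61 to 5.12). At the low end were *ndufb6*, *ndufa3* and *ndufs4* of complex I, with ratios between 0.335 and 0.488. The median log2 fold was 0.04 over the members and -0.33 over all features, and scaled to the median ratio of features the members' ratio was 1.86, 15 members passed and the mt- ratio turned to 1.21. All features move by the same factor under this scaling, and their share past 2-fold under it is not given here. The same factor applies to each complex, so the slightly lower complex I level also rests on scaling to the total. Dissociation stress genes were lower (6990 against 20500 CPM summed, 7 of 10 past 2-fold).

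Superficial chondrocyte-like cells, which line the joint surface and make the lubricant encoded by *prg4b*, had higher summed levels of every complex than connective cells. The members summed to 8558 CPM in 113 cells, 1.57-fold (1.51 to 1.62) the level of connective cells, with complexes I, III, IV and V at ratios of 1.48, 1.43, 1.61 and 1.62. The mt- genes summed to 11637 CPM, a ratio of 1.64 (1.59 to 1.69), and they were uneven. Complex V (*mt-atp6* and *mt-atp8*) was at 2.53 (2.38 to 2.70), complex I at 2.33 (2.18 to 2.49) and *mt-cyb* at 1.62 (1.48 to 1.78). Complex IV, from *mt-co1* and *mt-co2* without *mt-co3*, was at 1.25 (1.19 to 1.31). Of 10 tested mt- genes 6 were at least 2-fold higher, namely *mt-atp6*, *mt-nd1*, *mt-nd2*, *mt-nd3*, *mt-nd4l* and *mt-nd5*, while *mt-co1* was at 1796 against 1551 CPM and *mt-co2* at 3468 against 2662 CPM.

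Of 67 tested members 9 were at least 2-fold higher in the superficial chondrocyte-like cells, against 11.4% of 4348 features, and 1 lower, against 13.3%. *cox7c*, a small subunit of complex IV, was at 365 against 116 CPM (ratio 3.14, 2.63 to 3.74). *atp5pd* was at 153 against 53.6 CPM, *cox5ab* at 70.0 against 22.3 CPM, *atp5mc1*, another subunit c gene, at 200 against 76.9 CPM, and *cox6a1* at 231 against 90.9 CPM. The others were *atp5f1c*, *atp5fa1*, *atp5if1b* and *atp5pf*, all of complex V, and the lower member was *cox4i2*. The share past 2-fold was near that of all features, whereas the medians were 0.47 and 0.06 on the log2 scale, since 60 of the 67 folds were above 0. Epithelial markers summed to 4696 CPM in these cells and 2199 CPM in connective cells, and dissociation stress genes to 9988 and 20500 CPM, and their part in the ratios was not tested. Of 4 tested genes of complex II *sdhb* was higher, and of 16 tested glycolysis genes 4 were higher (*aldocb*, *eno1a*, *pgam1a* and *pkma*) and 1 lower.

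Epithelial-like cells differed from connective cells in opposite directions for the nuclear and mt- genes. The members summed to 6556 CPM in 366 cells, a ratio of 1.201 (1.18 to 1.22), with complex IV at 1.32 (1.28 to 1.36), complex V at 1.29 (1.26 to 1.33), complex III at 1.104 (1.03 to 1.18) and complex I at 0.921 (0.882 to 0.962). The mt- genes were at 4651 against 7084 CPM, a ratio of 0.657 (0.643 to 0.670), with all 12 folds below 0 and *mt-cyb* and *mt-atp6* past 2-fold. Scaled to the median ratio of features, the ratios were 1.89 for the members and 1.03 for the mt- genes, so the lower mt- level rests on scaling to the total. The same factor applies to each complex, so the lower complex I level rests on that scaling too. Of 77 tested members 2 were at least 2-fold higher, *cox5aa* (209 against 97.1 CPM) and *atp5if1b* (123 against 55.7 CPM), against 6.99% of 10359 features, and 1 lower, *cox4i2*, against 12.4%. Cytochrome c, the electron carrier encoded by *cycsb*, was at 1147 against 511 CPM. Immune markers summed to 738 CPM in epithelial-like and 22.4 CPM in connective cells, and dissociation stress genes to 12010 and 20500 CPM, and their part in these ratios was not tested.

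**Figure D3:**
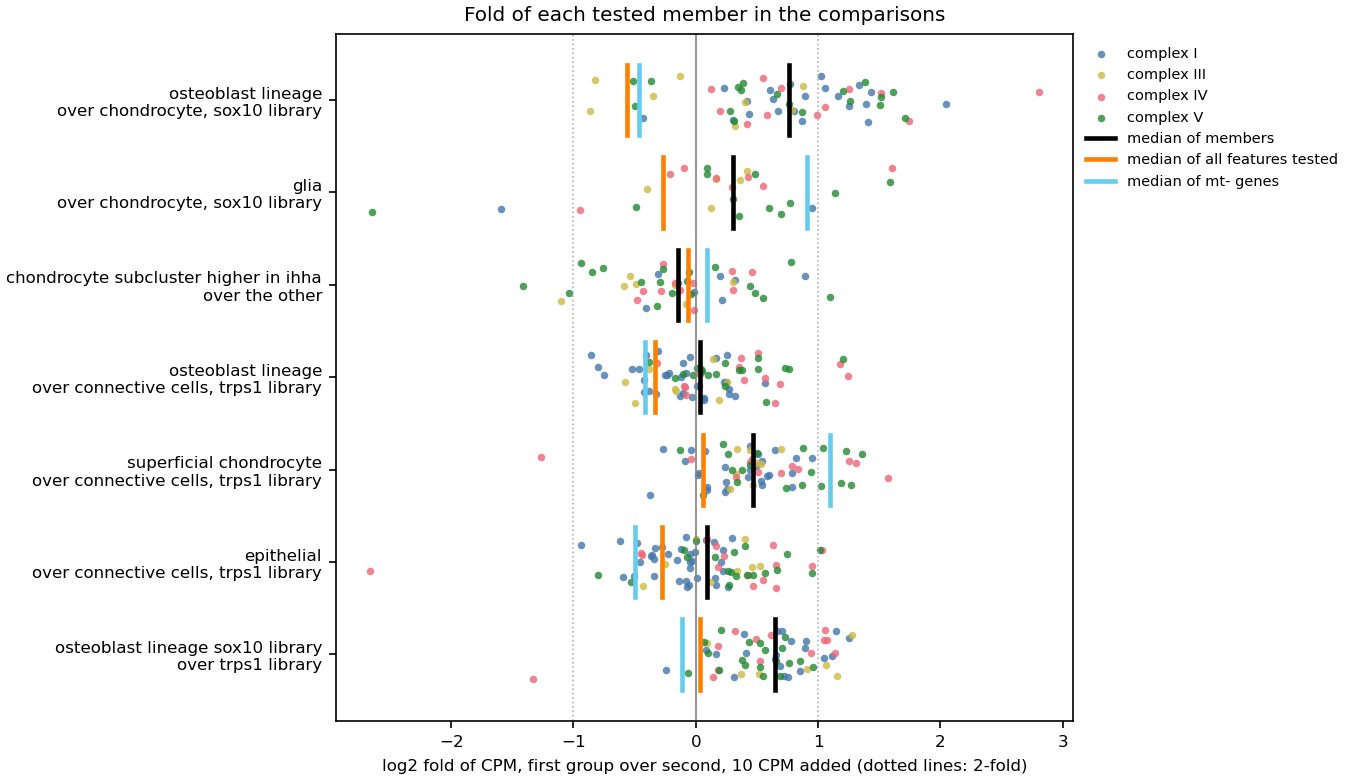
Log2 fold of each tested member in the 7 comparisons, 10 CPM added to both levels, colored by complex, with medians of the members (black), of all features tested (orange) and of the mt- genes (light blue), and dotted lines at 2-fold. The members' median is 0.76 in the osteoblast lineage over chondrocyte-like cells and 0.04 over connective cells, and the right-hand point of the first row is *cox6b1*, whose fold against 0 UMIs depends on the CPM added.

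The osteoblast lineage was the class present in both sorts in number, and its level differed between them. The members were at 9693 CPM in the 45 sox10 cells and 6354 CPM in the 215 trps1 cells, a ratio of 1.53 (1.46 to 1.59), with complex III at 1.79, complex I at 1.67, complex IV at 1.53 and complex V at 1.42. The mt- genes were at 5094 and 5336 CPM, a ratio of 0.955 (0.901 to 1.01). Of 60 tested members 11 were at least 2-fold higher in the sox10 cells, against 5.94% of 2710 features, and 1 lower, *cox4i2*, against 14.1%. The complex III subunits *uqcr10* (110 against 39.4 CPM) and *uqcrq* (170 against 70.7 CPM), *ndufs5* (70.8 against 23.8 CPM) and *ndufa1* (149 against 61.8 CPM) of complex I and *cox7c* (425 against 188 CPM) had the highest folds.

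Values that moved with that difference were the mix of subclusters, ribosomal protein genes and stress genes. Pre-osteoblast-like cells were 30 of the 45 sox10 cells but 38 of the 215 trps1 cells. Osteoblast-like cells alone were at 9902 against 5913 CPM, and pre-osteoblast-like cells alone at 9441 against 8384 CPM, with intervals that do not overlap in either pair. The sox10 osteoblast-like cells numbered 15, with a median of 9616 UMIs per cell against 5176 in the trps1 library. For pre-osteoblast-like cells the medians had the opposite order, 3301 against 5527.5 UMIs. The part of depth in the levels was not tested. Cytosolic ribosomal protein genes were at 395749 against 325304 CPM. Dissociation stress genes were at 1447 against 6990 CPM, with 9 of 10 at least 2-fold lower in the sox10 cells. With no upper limit on genes per cell, a setting added after the data were seen, the ratio of the members was 1.41 and only 3 members passed. The library, the sort and the cells' makeup cannot be told apart with 1 library per sort.

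Levels of some single members also differed between classes. *cox4i2* encodes an alternative form of subunit 4 that in mammals is found in lung and pericytes and is induced by low oxygen. It had no UMI in 442432 UMIs of the 154 chondrocyte-like cells. A fixed floor of 3 UMIs, not the Poisson interval, would there be 6.78 CPM, or 1.95% of cells with a UMI. The level of *cox4i2* was 82.8 CPM (77.8 to 88.1) in connective cells and 77.4 CPM (63.2 to 93.8) in the trps1 osteoblast lineage, but at 28.5 CPM (14.2 to 51.0) in superficial chondrocyte-like and 4.64 CPM (2.23 to 8.54) in epithelial-like cells. Among the 10 connective clusters it ranged from 44.8 CPM in ligamentocyte-like cells to 120 CPM in the *ccl19a.1* cluster. Within the sox10 library the osteoblast lineage had 7 UMIs (24.8 CPM, 9.96 to 51.0) and glia-like cells 2 UMIs. *cox4i1*, the common form, varied less, between 179 and 329 CPM over the 8 classes.

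As a share of the UMIs of both subunit 4 genes, *cox4i2* made up 31.7% (30.1 to 33.3%) in connective cells, 25.1% (21.0 to 29.5%) in the trps1 osteoblast lineage, 10.3% in superficial chondrocyte-like, 7% in the sox10 osteoblast lineage, 2.38% in epithelial-like and 0 of 108 UMIs in chondrocyte-like cells, with an upper bound of 3.36%. The chondrocyte-like cells counted here came from the sox10 library and the connective cells from the trps1 library, and the share was lower in the sox10 than in the trps1 osteoblast lineage too, so that class and library cannot be told apart here. Under 8 other settings of the clustering, in which the chondrocyte-like class held between 143 and 185 cells, its *cox4i2* count was 0 as well. This recount was added after the 0 had been seen.

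Other paralogs were split by class as well. *cox6a2*, in mammals the heart and muscle form of subunit 6A, had 25 UMIs in 18 of the 113 superficial chondrocyte-like cells (64.8 CPM, 41.9 to 95.6) and 21.9% of the UMIs of both 6A genes there, against 4.31 CPM and 4.53% in connective cells, 0.464 CPM in epithelial-like and 0 in chondrocyte-like cells. The connective clusters were unlike in this share, with 14.6% (5.57 to 29.2%) in the *ccl19a.1* cluster and 11.7% (7.79 to 16.7%) in the *hspb1* cluster. The *ctslb* cluster was at 5.77% (1.21 to 15.9%). All of these intervals overlap that of superficial chondrocyte-like cells (14.7 to 30.6%). Skeletal muscle markers summed to 2.59 CPM in the superficial chondrocyte-like cells, with 8 of 9 at 0. *cox6b1* was 0 of 174 UMIs of both 6B genes in chondrocyte-like cells, with an upper bound of 2.10% that takes in the 1.91% of connective cells. Its share was 7.06% in the trps1 osteoblast lineage and 18.5% (9.25 to 31.4%) in endothelial-like cells, from 10 UMIs, against 0.835% in epithelial-like cells. *cox5ab* was 32.9% and 27.96% of both 5A genes in superficial chondrocyte-like cells and the trps1 osteoblast lineage, against 18.7% in connective cells, of which the ligamentocyte-like (29.7%, 18.9 to 42.4%) and dermal fibroblast-like cells (26.5%, 20.8 to 32.8%) were as high within their intervals. The identity of these copies was not analysed here, and reads that match more than 1 gene could shift such shares.

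In complex V the subunit c genes encode the same kind of rotor protein. *atp5mc3a* was 28.8% (23.1 to 35.0%) of the 3 genes in chondrocyte-like cells, against between 2.22 and 13.6% in the other 7 classes, although the *coch* cluster of the connective cells was at 21.6% (15.3 to 29.1%), an interval that overlaps. *atp5mc1* was 30.9% (25.2 to 37.1%) in superficial chondrocyte-like cells, 29.1% (21.6 to 37.6%) in ligamentocyte-like cells and 9.75% in chondrocyte-like cells. The inhibitor gene *atp5if1b* was 77.4% (72.6 to 81.7%) of both inhibitor genes in epithelial-like cells and 44.5% (41.9 to 47.0%) in connective cells. Its share was also 64.6% (54.4 to 74.0%) in the *coch* cluster, 62.8% (51.7 to 73.0%) in superficial chondrocyte-like cells and 75% (42.8 to 94.5%) in endothelial-like cells. These 3 intervals overlap that of epithelial-like cells. The level of *atp5if1b* reached 167 CPM in the *coch* cluster against 42.2 CPM in the *glis1b* cluster.

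**Figure D4:**
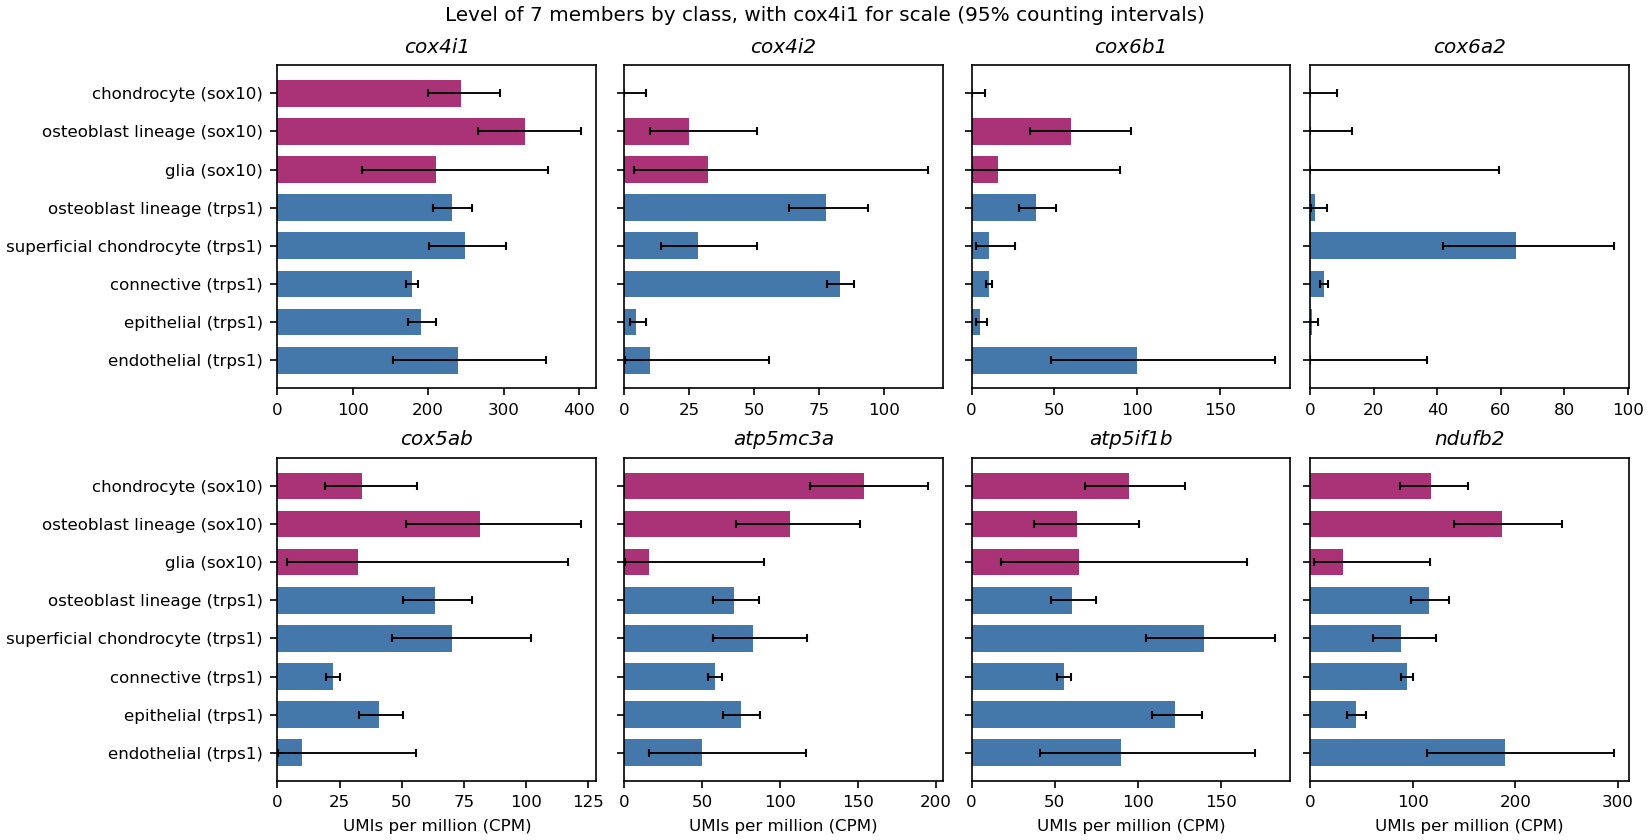
Level in CPM of *cox4i1* and of 7 members chosen after their values were seen, in 8 classes of cells (purple, sox10 library; blue, trps1 library), with 95% counting intervals. *cox4i2* and *cox6b1* are at 0 in chondrocyte-like cells, and *cox6a2* stands at 64.8 CPM in superficial chondrocyte-like cells and below 5 CPM in the other classes.

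Across the 15 clusters with at least 200000 UMIs, 26 of the 75 members with at least 100 UMIs had their highest level in superficial chondrocyte-like cells and 22 in trps1 pre-osteoblast-like cells. That limit kept only the *fgfbp2b* cluster of the sox10 library. The sox10 osteoblast-like (154411 UMIs) and pre-osteoblast-like clusters (128273 UMIs), the highest in summed level, were not ranked, nor was the glia-like cluster (61930 UMIs). The *fgfbp2b* chondrocyte-like cluster had the lowest level of 21 members and the *coch* cluster of 14, although clusters of fewer UMIs reach both ends more often by counting error. The *fgfbp2b* (235484 UMIs) and trps1 pre-osteoblast-like clusters (239739 UMIs) were the shallowest of the 15. These counts are given without those of all features, so they are no result about the members. For the *fgfbp2b* cluster, class and library cannot be told apart. Among the connective clusters complex I varied most, from 820 CPM in the *coch* cluster to 1582 CPM in dermal fibroblast-like cells, whereas complex IV ranged from 1427 to 1971 CPM and complex V from 1968 to 2578 CPM. The 3 highest clusters for complex I, dermal fibroblast-like, *pck1* (1498 CPM) and *glis1b* (1319 CPM), had the lowest summed levels of cytosolic ribosomal protein genes, at 183449, 154705 and 199464 CPM, and the highest of dissociation stress genes, at 26851, 43681 and 23022 CPM. The part of these in the complex I level was not tested.

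*ndufa4l* was counted in complex I by its symbol, and moving it to complex IV, a choice made after its level had been seen, changed the order of the complexes by ratio in glia-like over chondrocyte-like cells, where complex IV (1.46) then passed complex V (1.41). Without it complex I was at 2.15 in the osteoblast lineage over chondrocyte-like cells, 2.32 in glia-like over chondrocyte-like cells, 0.827 in epithelial-like over connective cells and 0.905 in the trps1 osteoblast lineage over connective cells. Mitochondrial ribosomal protein genes, which serve the translation of the mt- transcripts, were seldom deep enough in the sox10 library, with 1 of 6 tested higher and none lower in the osteoblast lineage over chondrocyte-like cells (*mrps15*) and 0 of 55 tested past 2-fold in the trps1 osteoblast lineage over connective cells. Of 10 listed regulators of mitochondrial genes 3 could be tested in the sox10 osteoblast lineage over chondrocyte-like cells, where 35.2% of all features were lower, and *esrra* and *gabpa* were at least 2-fold lower.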

How the data were processed

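The deposited matrices hold UMI counts per barcode and feature, made by the authors with Cell Ranger 3.0.0 on GRCz11 from 10x 3′ libraries, 1 per sort. Barcodes with at least 500 and at most 2000 detected genes and at most 5% mt- UMIs were kept (1114 fell below, 48 above and 161 over the mt- limit), and clustered in Seurat 5.3.0 (R 4.3.3) at a resolution of 0.9 on 38 of 50 components, without the members or mt- genes among the variable features. The mt- share of each cell was regressed out in scaling, so the clusters were not independent of the mt- level. Epithelial and endothelial cells were then set aside and 3769 cells were clustered again into 17 clusters, with subclustering of osteoblast-like and chondrocyte-like cells. A name needed at least 3 markers of its list in at least 5% of cells and 2-fold higher than elsewhere, so names were rebuilt and may differ from those of the authors. Scrublet called 2 of 462 and 0 of 4876 barcodes, which is too few for a working caller, so doublets were limited only by the upper gene limit.

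Counts were summed per library and cluster and divided by the group's total (Python 3.11.15, scipy 1.17.1). Intervals are exact Poisson intervals for levels, exact binomial intervals for shares and ratios, and describe these libraries, not the conditions. Features with at least 5 UMIs expected in the smaller group (called tested) were compared with a 2-fold limit, 10 CPM being added to both levels. Members named were the 5 highest of each complex, paralog groups, and in each comparison up to 5 at each end past 2-fold or else the 3 at that end, with up to 4 genes of each other list past 2-fold. Some others were named after their values were seen. Members, lists and comparisons were chosen with earlier results of these data known. Of the members, 83 symbols matched RefSeq, 2 matched a synonym (*ndufa4* and *ndufa4l*) and 1 did not match. Sequences and promoter motifs were not analysed here. Alternatives covered clustering, cell limits, scaling, pseudocount, count filter and fold. Scripts were tested on simulated Poisson counts, with changes larger and features deeper than the limits used here and no spread between cells. That test therefore does not cover calls near those limits.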

Additional observations from a re-analysis of the deposited data

Results flagged for a closer look

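Features outside the member rule carried signal. Symbols written in capitals were not matched by the rule, and of these *COX5B* had 2836 UMIs over all kept cells, *NDUFB1* had 1782 and *COX7A2* (1 of many) had 1332, each far above the 3 UMIs that a count of 0 allows. *COX5B* was at 156 CPM in chondrocyte-like cells, 354 CPM in the sox10 osteoblast lineage, 291 CPM in epithelial-like and 138 CPM in connective cells. *NDUFB1* was at 122, 180, 106 and 103 CPM in the same classes, and *COX7A2* (1 of many) at 27.1, 53.1, 66.4 and 86.5 CPM. By UMIs *NDUFB1* would rank above *ndufb2* (1563) in complex I, and *COX5B* above *cox7c* (2547) in complex IV. The ranks, shares and summed levels given for the complexes leave these symbols out.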

How the results depend on the processing

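No paired analysis was possible because each sort gave 1 library, and for the same reason no replicate could be left out. Of 91 alternative ratios of the members 77 moved by less than the counting interval, 14 moved further and 0 changed direction. With scaling to the median ratio the members' ratio was 2.66 for the sox10 osteoblast lineage over chondrocyte-like cells (21 members past 2-fold became 38), 1.86 for the trps1 osteoblast lineage (3 became 15), 1.46 for superficial chondrocyte-like cells, 1.89 for epithelial-like cells (3 became 17) and 1.45 between sorts, and the mt- ratio turned to 1.30 for the sox10 osteoblast lineage, 1.21 for the trps1 osteoblast lineage and 1.03 for epithelial-like cells. Without mt-, ribosomal and leading features the ratios were 2.50 (35 members), 1.68 (13), 1.47, 1.31 (5) and 1.61. Both changes of scaling move all features, and the counts of members are given without the share of all features, so they are no result about the members. For glia-like over chondrocyte-like cells the ratio was 1.14 with at least 300 genes per cell and 1.85 with no upper gene limit, and the log2 fold of *ndufb2* (-1.59) turned to 0.44 with 300 genes and 0.32 with no mt- limit.

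Counts of members past 2-fold depended on the filter, and here they too are given without the share of all features. With 20 UMIs expected they were 11 for the sox10 osteoblast lineage, 0 for glia-like cells, 0 between chondrocyte-like subclusters and 6 between sorts, and with 1 UMI expected 18 for glia-like cells and 9 between subclusters. At 1.5-fold they were 37, 10, 10, 10, 24, 14 and 33 in the order of the comparisons. With 1 CPM added they were 7 for the trps1 osteoblast lineage and 7 for epithelial-like cells, and with variable features as selected 3 for glia-like cells. With no upper gene limit, an alternative added after the data were seen, they were 11 for glia-like cells and 3 between sorts, and the ratios were 1.24 for the trps1 osteoblast lineage and 1.41 between sorts. Superficial chondrocyte-like cells met the naming rule under neither the variable features as selected, resolution 0.6, the 10% mt- limit, 300 genes nor no upper gene limit, and the unnamed cluster highest in *prg4b* took their place there. The planned search of promoters for motifs was not run. With 35 glia-like and 25 endothelial-like cells, depth limits what could be seen in those classes.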
